A study of Papio hamadryas with 14 samples.

Results

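Whole kidneys of adult baboons (Papio hamadryas) were compared with whole kidneys of baboon fetuses at 160 days of gestation, the latest fetal stage of the series (160dG). The members were chosen by label: 6 of the 14 samples, 3 adult and 3 fetal, and the 16186 probe sets that both groups share. The adults were 6, 12 and 7 years old (adult replicates 1, 2 and 3). No treatment, genotype or sex was labelled for either group, and the labels describe each sample as total RNA of a whole kidney, so cortex, medulla and the tissue attached to the organ were read together. The other 8 samples are earlier fetal kidneys (2 at 60 days, 3 at 90 days and 3 at 125 days), and they served here to place the adult levels. RNA was hybridised to Affymetrix arrays made for human genes, on which a probe set is a group of short probes that together give 1 signal for a transcript.

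The adult and the fetal samples were hybridised to different array types and deposited as separately normalized tables. Array type and age therefore cannot be told apart for any gene, and no p-value is given for the adult comparison. The sizes of the differences, the overlap of the arrays and the behaviour of further probe sets for the same gene are described in its place. A difference is the adult mean minus the 160dG mean of log2(signal + 16), and its standard error (SE) comes from the spread of the 3 arrays on each side. The added constant makes the differences of dim genes smaller than their ratio of signals.

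As background, the fetal baboon kidney forms new nephrons from a cap of progenitor cells around the tips of the branching ureteric bud, within a broad loose mesenchyme called the stroma. The adult kidney makes no new nephrons, and most of its cortex is proximal tubule, which reabsorbs filtered solutes, secretes organic anions and runs on fatty acid oxidation. Interstitial collagen, fetal growth factors and imprinted genes are known as features of the growing kidney, and transport and amino acid handling as features of the mature one.

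Of 9580 genes with a probe set of their own, 5130 lay above the intensity filter, which was a mean level over the median of all probe sets (a signal of 201). Among these, 862 genes (16.8%) differed by at least 2-fold with no overlap between the 3 adult and the 3 fetal arrays, which is what "called" means below. Of them, 433 were higher in the adult kidneys (8.44%) and 429 were lower (8.36%). The typical distance between the groups was larger than the typical spread inside them: the median absolute difference was 0.46 on the log2 scale, against a median SD between replicates of 0.21 in each group. At any size of difference, 2725 genes (53.1%) had groups that did not overlap, 1391 of them higher and 1334 lower. In 275 genes (5.36%), 113 higher and 162 lower, every adult array was at least 2-fold away from every fetal array. Differences of 8-fold or more were found in 13 called genes that were higher and 15 that were lower. A further 20 genes differed by 2-fold in their means but had overlapping arrays and were not called.

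The split between higher and lower depended on the scale. Centring each array on its own median gave 903 calls, of which 32.8% were higher in the adult, against 50.2% without centring, and it moved the median difference over the tested genes from 0.02 to -0.13. Centring also took ATP5MG (0.87), PCK1 (0.89), CALB1 (0.91), ELF3 (0.96), CD22 (0.96), COX6B1 (0.96) and CD59 (0.98), which are called below, under 2-fold. Most of the shift between the groups lay in the dim signals. The 25th percentile of the signal was 82.0 to 86.6 on the 160dG arrays and 101.0 to 104.4 on the adult arrays, whereas the 75th percentile was 416 to 426 and 406 to 408. Among the tested genes, the median difference went from 0.17 in the dimmest of 4 equal groups by level to -0.15 in the brightest. In the 4450 genes that were not above the filter the median was 0.39, and 891 of them would have met the call rule as higher against 347 as lower. The 9 hybridisation control probe sets, which report RNA added by the laboratory, had a geometric mean of 1724 to 1882 on the 160dG arrays and 2565 to 2865 on the adult arrays. The ratio of 3' to 5' signal for GAPDH, a measure of RNA integrity, overlapped (1.62 to 1.96 and 1.57 to 2.11). Correlations of the log2 signals were 0.932 to 0.933 between 160dG arrays, 0.906 to 0.920 between adult arrays and 0.760 to 0.807 across the groups. The part of array type in any of these values was not tested.

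**Figure D1:**
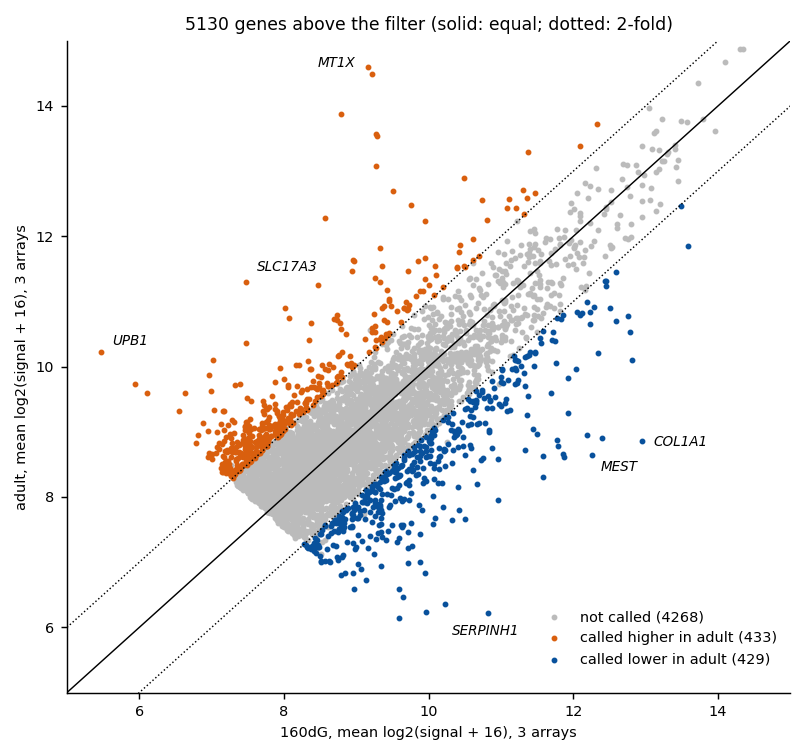
Mean log2(signal + 16) of the 3 adult arrays (vertical) against that of the 3 arrays at 160 days of gestation (horizontal), one point for each of the 5130 genes above the filter. Orange points are the 433 genes called higher in the adult and blue points the 429 called lower; the solid line marks equal means and the dotted lines a 2-fold difference, and MT1X and SERPINH1 lie farthest out among the labelled genes on their sides.

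One adult kidney stood apart in a way that touches some of the calls. On adult replicate 3, from the animal aged 7 years, the 19 genes of the skeletal and cardiac muscle list that are on the arrays had a summed signal of 31454. The same sum was 2349 and 2683 on the other adult arrays and 1141 to 1313 on the 160dG arrays. TNNC2, the calcium-binding troponin of fast skeletal muscle, read 162, 148 and 5893 in adults 1, 2 and 3, beside 118, 128 and 127 at 160 days. Its difference of 1.99 became 0.29 without adult 3. TTN (titin) read 451, 375 and 2701 in the adults and 103, 74.0 and 176 in the fetuses, and MB (myoglobin) read 298, 384 and 1083 against 148, 68.4 and 118. Both were higher in all 3 adults than in any 160dG kidney, and the median difference of the 3 muscle genes above the filter was 2.07 with adult 3 and 1.53 without it. Over all calls, 49 of the 433 higher genes and 57 of the 429 lower genes fell under 2-fold when adult 3 was left out, and 742 of the 862 calls were kept. The part of muscle RNA in the other differences was not tested. Values without adult 3 are printed below for some genes only, and the differences of others moved too. Without adult 3, TNC went from -3.87 to -3.33, GATA3 from -1.42 to -1.14 and RBP4 from 3.80 to 4.12.

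The largest differences toward the adult were in metallothioneins, small cysteine-rich proteins that bind zinc and copper. MT1X read 832, 630 and 366 on the 160dG arrays and 19806, 25884 and 23379 on the adult arrays. The difference was 5.27 ± 0.36 (SE, n = 3 and 3), and the lowest adult signal lay far above the highest fetal one. MT1H differed by 5.09 ± 0.39, MT1F by 4.30 ± 0.30, MT2A by 4.26 ± 0.27 and MT1G by 3.80 ± 0.18. MT1HL1, a metallothionein-like gene copy, led all genes with 5.43 ± 0.54. The probe sets of these genes belong to the classes that can bind several near-identical transcripts, so that the family as a whole was higher, and which of its members carried the signal is uncertain. A second probe set for MT1X also differed (3.76). Across the earlier fetal stages, the MT1X signal stayed below every adult value, as the plot of signal by array shows.

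Some other genes of protection against oxidants were higher as well. In the list of antioxidant genes and metallothioneins, 12 of 22 genes above the filter were called higher and none lower. The median difference was 1.09, beside 0.02 over all tested genes, of which 8.44% were called higher. The count and the median include MT1X, MT1H, MT1F and MT2A from above, so they do not describe the other genes alone. PRDX6, a peroxiredoxin that reduces lipid peroxides, read 862, 755 and 949 in the fetuses and 5471, 6406 and 5241 in the adults, a difference of 2.72 ± 0.13. GPX3, the glutathione peroxidase that the proximal tubule secretes into plasma, read 6288, 3273 and 6473 against 15201, 13752 and 11924, a difference of 1.41 ± 0.34. A second probe set for GPX3 gave 1.501. CAT (catalase) differed by 1.59 ± 0.23. Members that did not meet the rule included PRDX2 at -0.70 and TXN (thioredoxin) at -0.50.

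**Figure D2:**
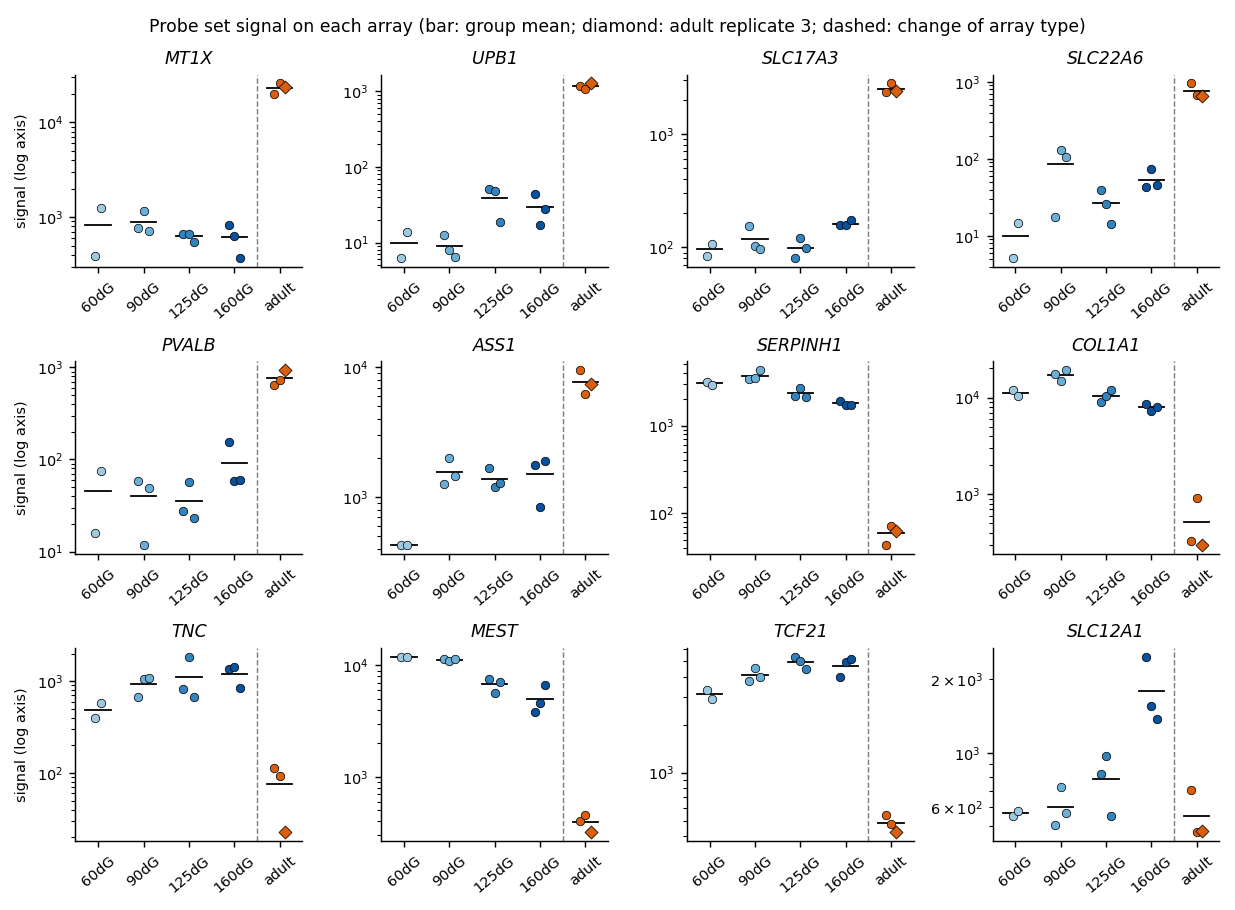
Signal of 12 genes on each of the 14 arrays (vertical, log axis, own range in each panel) by group from 60 days of gestation to adult, with bars at the group means, a diamond for adult replicate 3 and a dashed line where the array type changes. MT1X, UPB1, SLC17A3, SLC22A6, PVALB and ASS1 had all 3 adult arrays above all fetal arrays; SERPINH1, COL1A1, TNC, MEST and TCF21 had them below all fetal arrays, while SLC12A1 had a maximum at 160 days.

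Transporters of the proximal tubule formed the list with the highest median difference among those with 4 or more genes above the filter. Of its 25 genes above the filter, 14 were called higher in the adult kidneys and none lower, with a median of 1.14, and 23 of the 25 differences were positive. The summed signal of the 29 genes on the arrays was 13139, 16428 and 25275 (lowest to highest) at 160 days and 39758 to 45143 in the adults, with no overlap. In whole-organ RNA, a larger share of proximal tubule cells and more transcript in each cell cannot be told apart, here and in each cell-type list below.

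Carriers of organic anions led that group. SLC17A3, a phosphate-family carrier that moves urate across the apical membrane, read 156, 156 and 173 in the fetal kidneys and 2336, 2786 and 2392 in the adult kidneys. The difference was 3.82 ± 0.09, among the tightest of the large ones. SLC22A6, the basolateral organic anion transporter OAT1, read 42.6, 73.2 and 45.9 against 960, 682 and 659, a difference of 3.49 ± 0.26. SLC13A3, which takes up dicarboxylates such as succinate, read 25.1, 201 and 199 against 712, 1092 and 996. Its difference of 2.91 ± 0.82 had a wide error because 1 fetal array was far below the other pair, and its second probe set gave 5.47. SLC22A11, an apical urate and organic anion exchanger, read 629, 173 and 675 against 1509, 1931 and 1434, a difference of 1.89 ± 0.62.

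Solute and water channels of the same segment differed less. AQP1, the water channel of proximal tubule and thin descending limb, read 2566, 1801 and 3389 at 160 days and 7001, 7552 and 5679 in adults, a difference of 1.41 ± 0.29. Its second probe set gave 0.53 with overlapping arrays and was not called. SLC34A1, the sodium-phosphate cotransporter, differed by 1.37 ± 0.21, with fetal signals of 569, 481 and 771 and adult signals of 1594, 1692 and 1419. LRP2 (megalin), the receptor for filtered protein, had a mean difference of 1.01 ± 0.47 but overlapped: 1 fetal kidney, with a signal of 4540, lay inside the adult range of 4324 to 5289, and the other 2 fetal kidneys were at 1682 and 1739. CUBN (cubilin), its partner, read 264, 229 and 474 against 418, 120 and 475, a difference of -0.07 ± 0.66. Fetal replicate 3 had the highest 160dG signal of AQP1, SLC34A1, LRP2 and CUBN, and of the summed list.

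The enzymes of the proximal tubule brush border had a smaller median difference than the transporters. Of 11 genes above the filter, 2 were called higher, beside 8.44% of all tested genes. None was called lower, and the median was 0.21. CA4, the membrane-bound carbonic anhydrase, was called (1.80 ± 0.18), and so was PDZK1IP1, a small membrane protein of the tubule (1.44 ± 0.40). The peptidases ANPEP at 0.21, DPP4 at 0.10, MME at -0.21 and ENPEP at -0.61 were not called. XPNPEP2, another peptidase, had a mean difference of 1.37 ± 0.63, but its highest fetal signal (1191) passed its lowest adult signal (1188). EZR (ezrin) differed by -0.998 ± 0.15 with no overlap and just missed the size required.

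Enzymes of intermediary metabolism shared the direction of the transporters. Among genes of gluconeogenesis and amino acid breakdown, 21 of 39 above the filter were called higher and none lower, with a median of 1.03. UPB1, the last enzyme of pyrimidine breakdown, had the largest difference outside the metallothioneins. It read 43.7, 17.3 and 27.7 in the fetal kidneys and 1183, 1082 and 1274 in the adult kidneys, a difference of 4.75 ± 0.25. Its fetal signals lie in the dim range where scale matters most, so the size of the ratio is uncertain, but the adult signals were well above the filter. ASS1, the enzyme that makes argininosuccinate on the way to arginine, read 1782, 842 and 1913 against 9522, 6261 and 7442 (2.41 ± 0.41). HPD, of tyrosine breakdown, differed by 2.39 ± 0.30, and OAT, ornithine aminotransferase, by 2.29 ± 0.63. GATM, which makes the creatine precursor guanidinoacetate, read 2766, 1779 and 3713 against 16024, 8720 and 7143 (1.92 ± 0.47), while its second probe set was at -0.49. The gluconeogenic enzymes PCK1 at 1.04, FBP1 at 1.30 and PCK2 at 1.76 were called.

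Fatty acid oxidation and peroxisomal genes numbered 33 above the filter, of which 11 were called higher and none lower, with a median of 0.70. ACSL1, which activates long-chain fatty acids, read 618, 448 and 392 at 160 days and 2976, 3467 and 3040 in adults (2.68 ± 0.20). Its second probe set gave 0.96 and was not called. ACAA2, the mitochondrial thiolase, read 886, 776 and 1338 against 4607, 5393 and 4511 (2.29 ± 0.25). The peroxisomal enzymes DAO and ACAA1 differed by 1.92 ± 0.32 and 1.83 ± 0.28. Of 48 subunits of oxidative phosphorylation, 5 were called higher, a share near the 8.44% of all tested genes, and none lower. Their median was 0.37, with 38 positive. Their called members were NDUFA8 (1.45), SDHC (1.39), NDUFS7 (1.16; 0.9956 without 160dG replicate 2), COX6B1 (1.11) and ATP5MG (1.03). Further probe sets for SDHC gave 0.93, 0.55 and 0.50, and none was called.

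Drug and xenobiotic metabolism had 13 of 30 genes called higher and 1 lower, with a median of 0.75. NQO1, a quinone reductase, read 239, 196 and 347 against 1629, 1698 and 1772 (2.67 ± 0.23), and its second probe set gave 1.84. The aldo-keto reductases AKR1C2 and AKR1C1 differed by 3.72 ± 0.20 and 2.66 ± 0.22, on probe sets that can bind both of these near-identical transcripts. CES1, a carboxylesterase, differed by 2.06 ± 0.28 and CYP4A11, a fatty acid hydroxylase, by 1.98 ± 0.24. Another probe set for CYP4A11 gave 0.83 and was not called. CYP1B1 was the member called lower (-1.46). Outside the lists, DCXR, a dicarbonyl and xylulose reductase, read 841, 611 and 692 against 6407, 7944 and 5725 (3.20 ± 0.19). RBP4, the plasma retinol carrier, read 37.2, 86.0 and 26.1 against 1416, 778 and 528 (3.80 ± 0.56), and RNF186, a ubiquitin ligase, differed by 3.08 ± 0.30.

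The distal tubule also had genes with higher adult signals. In the distal convoluted and connecting tubule list, 5 of 11 genes were called higher and none lower (median 0.81). PVALB (parvalbumin), a calcium-binding protein of the early distal convoluted tubule, read 155, 58.2 and 59.9 at 160 days and 644, 729 and 935 in adults (2.97 ± 0.43). Parvalbumin is also a protein of fast muscle, and without adult 3 its difference was 2.83. KLK1, the kallikrein secreted by the connecting tubule, read 236, 216 and 236 against 707, 1145 and 1228 (2.05 ± 0.25). SLC12A3, the thiazide-sensitive cotransporter, read 254, 149 and 182 against 665, 465 and 526 (1.45 ± 0.25). CALB1, the calcium buffer of the same segments, differed by 1.06 ± 0.25 and its second probe set by 1.27. The first value was 0.86 without 160dG replicate 2 and 0.96 without adult replicate 2, under the size required.

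The loop of Henle list went the other way in its main gene. SLC12A1, the furosemide-sensitive cotransporter of the thick ascending limb, read 2471, 1558 and 1371 at 160 days and 707, 474 and 480 in adults, a difference of -1.65 ± 0.32. It was the only call among the 8 genes of that list above the filter, beside 8.36% of all tested genes called lower. The list median was 0.02. The 3 adult signals lay below the fetal ones, and near those at 60, 90 and 125 days. CLDN10, a claudin of the same limb, had a difference of 0.99 ± 0.11 with no overlap and just missed the size required. EGF, the growth factor made in the distal nephron, was dim at 160 days (141, 104 and 82.7) and read 398, 376 and 275 in adults; its mean level did not pass the filter.

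Collecting duct genes were near balance, beside 8.44% called higher and 8.36% called lower over all tested genes. AQP2, the vasopressin-regulated water channel, read 404, 400 and 310 against 456, 374 and 289, a difference of -0.01 ± 0.22, and AQP3 differed by 0.35 ± 0.25. Of 11 principal cell genes, SGK1 (1.34 ± 0.27) and ELF3 (1.12 ± 0.19) were called higher, GATA3 was called lower (-1.42 ± 0.33), and the median was -0.04. GATA3 is a transcription factor of the ureteric bud lineage and also of mesangial cells. In 7 intercalated cell genes, CA2, the cytosolic carbonic anhydrase, was called higher (1.35 ± 0.14) and the receptor KIT lower (-1.07 ± 0.15; -0.94 without 160dG replicate 2).

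**Figure D3:**
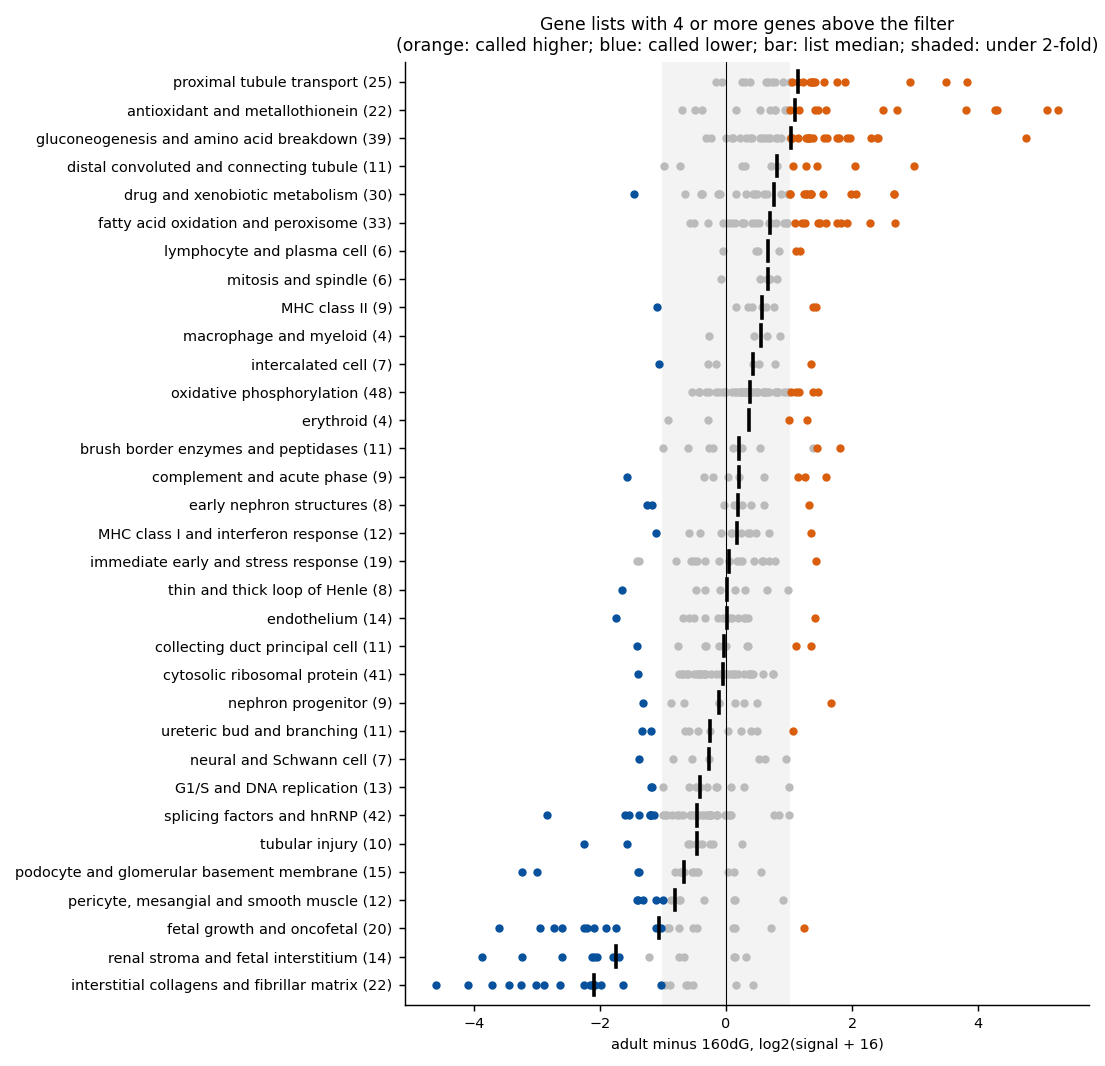
Adult minus 160dG difference in log2(signal + 16) for each gene above the filter (one point each), by gene list, with the number of genes in brackets and a black bar at the list median; lists with 4 or more such genes are shown and ordered by median. Orange points were called higher and blue points lower in the adult; the medians run from -2.10 in the collagen and matrix list to 1.14 in the proximal tubule transport list.

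On the fetal side the widest differences were in the interstitial matrix. Of 22 genes for interstitial collagens and fibrillar matrix, 15 were called lower in the adult kidneys and none higher, with a median of -2.10 (-1.92 without adult 3). The summed signal of the 31 genes on the arrays was 46352 to 50017 at 160 days and 8794 to 13202 in adults. SERPINH1, the chaperone that folds procollagen, had the largest difference toward the fetus of any tested gene. It read 1906, 1724 and 1735 in the fetal kidneys and 43.3, 71.5 and 63.4 in the adult kidneys, a difference of -4.60 ± 0.17. COL1A1, the main chain of type I collagen, read 8612, 7306 and 7890 against 326, 924 and 298 (-4.09 ± 0.51), and 2 further probe sets gave -3.40 and -2.43, while a dim one was at 1.10. COL3A1 differed by -3.01 ± 0.75, with adult signals of 178, 1042 and 395 that were more spread than the fetal ones of 3834, 2521 and 4488; its further probe sets gave -3.29 and -2.09.

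Type VI collagen and the elastic fibre followed. COL6A2 read 1208, 868 and 896 against 53.4, 104 and 36.1 (-3.72 ± 0.38), and COL6A3 read 2760, 4101 and 4527 against 232, 514 and 436 (-3.26 ± 0.40). ELN, tropoelastin, read 1207, 612 and 583 against 57.5, 56.1 and 51.2 (-3.45 ± 0.33). VCAN (versican), a large proteoglycan, differed by -2.89 ± 0.05, SPARC by -2.63 ± 0.25 and FN1 (fibronectin) by -2.12 ± 0.32. BGN (biglycan) at 0.43 and P4HA1, a subunit of the collagen hydroxylase, at 0.16 were the 2 members above the filter with positive differences. The 9 members below the filter had differences both ways, from MFAP2 at -4.26 to COL11A1 at 1.77, with a median of -0.41. In adult replicate 2 the signals of COL1A1, COL3A1, COL6A2 and COL6A3 were the highest of the 3 adults.

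Genes of the renal stroma were lower in the adult for the most part: 8 of 14 were called lower and none higher, with a median of -1.74. TNC (tenascin-C), a matrix protein of growing mesenchyme, read 1349, 1430 and 842 against 114, 93.0 and 22.7 (-3.87 ± 0.59). TCF21, a transcription factor of the stroma and of podocytes, read 3988, 4953 and 5145 against 543, 477 and 423 (-3.24 ± 0.15). DLK1, an imprinted membrane protein, read 3240, 1780 and 2889 against 271, 511 and 488 (-2.60 ± 0.39). MEIS2 differed by -2.12 ± 0.21, MEIS1 by -2.04 ± 0.31 and PDGFRA, the growth factor receptor of interstitial fibroblasts, by -2.09 ± 0.11. DCN (decorin) at 0.12 and THY1 at 0.14 were not called, so the list did not move as a block. VIM (vimentin), the filament of mesenchymal cells, read 7196, 6725 and 7250 against 1048, 2071 and 1456 (-2.25 ± 0.28). CDH11, a cadherin of mesenchyme, read 2748, 3001 and 3454 against 253, 367 and 295 (-3.27 ± 0.18).

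Mural cell genes had a smaller shift. Of 12 genes of pericytes, mesangium and smooth muscle, 5 were called lower, none higher, and the median was -0.80. Over all tested genes, 8.36% were called lower and 8.44% higher. MYL9, a myosin light chain, differed by -1.40 ± 0.32, ITGA8, the integrin of mesangium and metanephric mesenchyme, by -1.31 ± 0.25 and PDGFRB by -1.10 ± 0.17 (-0.96 without adult replicate 2). ACTA2, smooth muscle actin, was not called (0.13). Among 14 endothelial genes the median was 0.01, with 1 called higher and 1 lower, near the shares over all tested genes. AQP1, which is also a gene of the proximal tubule, was the gene called higher (1.41). CDH5, the endothelial cadherin, read 541, 622 and 700 against 112, 245 and 187 and was called lower (-1.74 ± 0.32), whereas PECAM1 at -0.04, FLT1 at 0.07 and EMCN at 0.35 were not called.

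Imprinted and fetal growth genes had 11 of 20 members called lower and 1 higher, with a median of -1.07. MEST, an imprinted gene of fetal tissues, read 3838, 4599 and 6608 at 160 days and 399, 451 and 320 in adults (-3.61 ± 0.27). CDKN1C, the imprinted cell cycle inhibitor, read 2340, 3912 and 3042 against 285, 405 and 467 (-2.95 ± 0.29), and all 3 of its further probe sets were called lower, at -3.50, -2.77 and -1.13. PEG10 differed by -2.73 ± 0.36. Of the insulin-like growth factor binding proteins, 4 were called lower: IGFBP2 (-2.10), IGFBP5 (-1.90), IGFBP4 (-1.12) and IGFBP7 (-1.03). Further probe sets for IGFBP5 gave -0.65 and -0.76 and were not called. IGFBP3 at 0.11 and IGFBP6 at 0.71 were not called. GRB10, an adaptor that restrains growth signalling, was the member called higher (846, 686 and 858 against 1683, 2168 and 1854; 1.24 ± 0.15). HMGA2, a chromatin protein of early development, differed by -0.53 ± 0.13 and was not called. It had already fallen by 2.72 on the log2 scale between 60 and 125 days (limma, adjusted p = 1.4e-06).

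SOX4, a transcription factor of immature cells, belongs to no list but was among the 15 genes with the largest lower difference. It read 5177, 6378 and 4744 against 491, 523 and 392 (-3.49 ± 0.18), and its further probe sets gave -3.35 and -1.89. MARCKS, a membrane-bound regulator of actin, read 4416, 3896 and 2935 against 503, 385 and 301 (-3.20 ± 0.27). Of its 3 further probe sets, 2 were lower (-2.93 and -1.16) and 1 was at 0.61. The remaining genes of that top group were TMEM158 (-3.18 ± 0.65), ZNF532 (-3.10 ± 0.61) and RCN2 (-3.003 ± 0.30).

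Glomerular genes were lower in part. Of 15 genes of podocytes and the glomerular basement membrane, 4 were called lower and none higher, with a median of -0.67. The summed signal of the 20 genes on the arrays was 17957 to 20732 at 160 days and 7755 to 10728 in adults. This sum holds TCF21, a call shared with the stroma list, with a mean of 4696 at 160 days and 481 in adults. It also holds PTPRO, with means of 2039 and 237. PTPRO, a phosphatase receptor of podocytes, read 2660, 1437 and 2020 against 242, 288 and 181 (-2.9995 ± 0.31), yet its second, dimmer probe set was called the opposite way (1.05 ± 0.35). PLCE1, a phospholipase of podocytes, differed by -1.40 ± 0.25. CLIC5 differed by -1.38 ± 0.37 with all arrays and by -0.43 without 160dG replicate 1, since another probe set then stood for the gene. WT1, the transcription factor of podocytes and progenitors, differed by -0.51 ± 0.18 on the probe set used and by -2.62 on the other. PODXL (podocalyxin) at 0.55 and SYNPO (synaptopodin) at 0.03 were not called. NPHS1 (nephrin) read 231, 195 and 177 at 160 days and 33.7, 27.2 and 27.9 in adults, but its mean level did not pass the filter.

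Markers of the nephrogenic zone had calls both ways, beside 8.44% called higher and 8.36% called lower over all tested genes. Of 9 nephron progenitor genes above the filter, CRYM was called higher (1.66 ± 0.15), ITGA8 lower, and the median was -0.10. SIX2, the defining progenitor transcription factor, was dim in both groups (89.0, 77.5 and 119 against 94.4, 167 and 206). PAX2 differed by -0.11 ± 0.15 and SALL1 by -0.87 ± 0.19. Among 8 genes of early nephron structures, JAG1, the Notch ligand (-1.25 ± 0.18), and CCND1, a cyclin (-1.18 ± 0.19), were called lower and HNF4G, a nuclear receptor of the proximal tubule, higher (1.32 ± 0.31). The summed signal of the 14 early nephron genes on the arrays was 5257 to 6780 at 160 days and 4266 to 4600 in adults, with no overlap. The 6 of them below the filter had a median of -1.15, beside 0.39 over all genes below it. Among 11 ureteric bud genes, FGFR2 (-1.33 ± 0.06) and SPRY2 (-1.19 ± 0.27) were called lower and CALB1 (1.06) higher. Above the filter, the medians of these 3 lists lay between -0.26 and 0.19, and that of the early nephron list changed sign to -0.03 after centring each array.

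Cell cycle genes gave no call toward the fetus at the level of mitosis. Only 6 of 37 mitosis and spindle genes on the arrays passed the filter, none was called, and their median was 0.66. UBE2C read 270, 354 and 305 against 424, 490 and 603. The summed signal of the list was 3285 to 5035 at 160 days and 5229 to 5791 in adults, in the dim range where adult signals tended to be higher across all genes. MKI67, the proliferation antigen, read 142, 139 and 95.8 against 306, 255 and 244, whereas TOP2A read 89.6, 159 and 111 against 34.8, 11 and 33.4; neither passed the filter. Of 13 genes of G1/S and DNA replication, PCNA (-1.20 ± 0.36, and -0.89 without adult 3) and CCND1 were called lower. The median was -0.41, and 8.36% of all tested genes were called lower.

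RNA-binding proteins were lower in the adult to a modest degree. Among 42 splicing factors, 9 were called lower and none higher, beside 8.36% and 8.44% of all tested genes. The median was -0.46, and 7 of the 42 differences were positive. HNRNPA3 read 1562, 1233 and 1518 against 283, 172 and 132 (-2.84 ± 0.32), SNRPD1 differed by -1.60 ± 0.30 and HNRNPM by -1.54 ± 0.18. Another probe set for HNRNPA3 gave -0.91 and was not called. HNRNPA0 differed by -1.39 ± 0.13 on the probe set used and by 0.06 on another. Of 41 cytosolic ribosomal protein genes, RPL11 was called lower (-1.39 ± 0.15), none was called higher, and the median was -0.05.

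Immune and blood genes were called in both directions, beside 8.44% of all tested genes called higher and 8.36% called lower. Of 4 erythroid genes, HBB and EPOR were called higher and none lower. EPOR, the erythropoietin receptor, was near the size required (1.00 ± 0.15, and 0.85 after centring each array). HBB, the adult beta-globin, read 687, 536 and 573 at 160 days and 1403, 1716 and 1315 in adults (1.28 ± 0.15), and its further probe sets gave 1.15 and 1.01. Without 160dG replicate 1 the value for HBB was 0.993, since another probe set then stood for the gene. Of 9 MHC class II genes, HLA-DPB1 (1.42 ± 0.16) and HLA-DQB1 (1.37 ± 0.40) were called higher and HLA-DRA lower (553, 490 and 615 against 300, 190 and 270; -1.09 ± 0.21, and -0.91 without adult replicate 2). The class II median was 0.57, with 8 of the 9 differences positive. The probes were designed on human alleles of these variable genes, so their order between genes is uncertain. TRBC1, a T cell receptor constant gene (1.17 ± 0.15), and CD22, a B cell receptor (1.11 ± 0.17), were called higher among 6 lymphocyte genes. No macrophage gene was called of 4, with a median of 0.55. The summed signal of the 24 macrophage genes on the arrays was 2818 to 3132 at 160 days and 4084 to 4884 in adults. For the 24 lymphocyte genes it was 2860 to 3710 and 5648 to 6666. Most genes of both lists were below the filter, where adult signals tended to be higher across all genes. In the complement list C1S (1.58 ± 0.45), C1R (1.25 ± 0.09) and CD59 (1.14 ± 0.16) were called higher of 9, and CLU (clusterin) lower (1018, 862 and 1380 against 383, 408 and 273; -1.57 ± 0.26). Signals of OAS2, an interferon-induced enzyme, were higher (1.34 ± 0.19) and those of IFITM3 lower (-1.11 ± 0.34; -0.92 without 160dG replicate 2 and -0.94 without adult replicate 2) among 12 genes of class I and interferon response, whose median was 0.17.

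A pair of early response genes, picked after their values were seen, differed between the adult animals. CCN1, an immediate early gene for a matrix protein, read 208, 231 and 1734 in adults 1, 2 and 3, and 1054, 1272 and 1308 at 160 days. FOS read 195, 16.5 and 384 against 302, 380 and 367. Both were lower in adults 1 and 2 than in any 160dG kidney, and lower than in adult 3, the kidney with the muscle signal. ZFP36, which destabilises messenger RNA, was the only call among 19 genes of the list (1.42 ± 0.18), and the median was 0.05. The medians of the list on adult arrays 1, 2 and 3, relative to the 160dG mean, were 0.03, -0.01 and 0.13.

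The probe sets not used for the call gave a check on each gene by other probes, on the same arrays. Their values are printed above for some of the named genes only. Of the 862 called genes, 647 had no other probe set above the filter. The other 215 genes had 304 further probe sets, of which 248 (81.6%) differed in the same direction and 132 (43.4%) also met the call rule in that direction. Over all tested genes, called or not, the same shares were 66.3% and 17.1% of 1744 further probe sets. Larger differences had larger shares. It was 79.0% in the same direction and 35.1% called for genes with a difference of 1 to 1.5, and 88.2% and 76.5% for the 51 further probe sets of the 34 genes with a difference of 2 or more. It was close for genes called higher (81.7%) and lower (81.5%). In 164 of the 215 genes every further probe set had the same sign, in 105 at least 1 was called the same way (35 higher and 70 lower), and in 6 a further probe set was called the opposite way. Within the fetal table, where all arrays are of 1 type, the same rule applied to 125 against 60 days gave 93.2% in the same direction and 47.3% called, over 74 further probe sets of 51 genes.

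**Figure D4:**
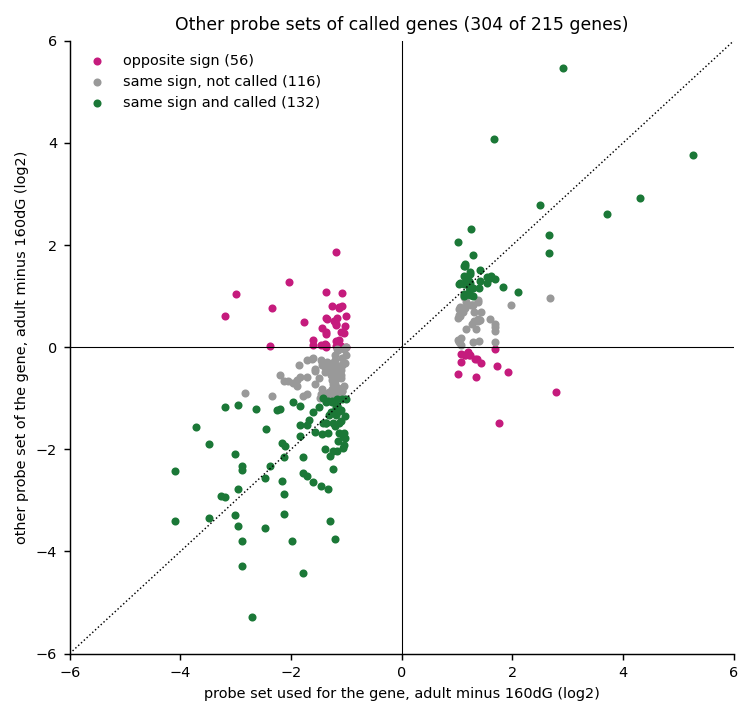
Adult minus 160dG difference (log2) of each further probe set above the filter (vertical) against that of the probe set used for the gene (horizontal), for the 215 called genes that have one; the dotted line marks equal differences. Of the 304 points, 132 (green) had the same sign and were called, 116 (grey) had the same sign only and 56 (magenta) had the opposite sign.

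The adult levels were next set beside an earlier fetal change that uses none of the adult or 160dG arrays in its contrast. The genes tested and their probe sets were still those picked by the adult and 160dG levels, so the counts depend on that choice. The 160dG arrays also entered the estimate of the spread. By the limma model described next, 174 of 9580 genes rose and 54 fell when no filter was used. Between 60 and 125 days, 188 of the 5130 genes rose (3.66%) and 43 fell (0.838%) by limma, a linear model with moderated variances fitted over the 11 fetal arrays, at a Benjamini-Hochberg adjusted p under 0.05. Of the 433 genes higher in the adult than at 160 days, 46 had risen (10.6%) and none had fallen (limma; 5 had fallen at an unadjusted p under 0.05). Of the 429 genes lower in the adult, 17 had risen (3.96%) and 9 had fallen (2.10%). These counts depend on the pair of 60dG kidneys: 231 genes passed in all, 78 without 60dG replicate 1, 125 without 60dG replicate 2 and 152 to 168 without a 125dG kidney (152 without replicate 2). The summed signal of 12 adrenal genes was 634 on the first 60dG array and 9410 on the second, beside 1355 to 2010 in adults and 770 to 1025 at 160 days, and its part in the fetal counts was not tested. The first 60dG array also stood apart from all other arrays in XIST and RPS4Y1, genes of the sex chromosomes, with values given at the end. The part of that difference in the fetal counts was not tested either.

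Examples of the 46 genes that rose early and were higher still in the adult follow a count by list. Of 25 proximal tubule transporters above the filter 12 rose between 60 and 125 days and none fell (limma; 0 had fallen at an unadjusted p under 0.05). GLYAT, which conjugates glycine in proximal tubule mitochondria, rose by 4.19 (adjusted p = 2.0e-06) and was higher in adults by a further 1.30 ± 0.33. Another GLYAT probe set differed by 0.52 between adults and 160 days and was not called. AQP1 rose by 2.68 (adjusted p = 1.5e-05), GATM by 2.75 (adjusted p = 0.00080) and GPX3 by 2.72 (adjusted p = 0.0013). DIO1, the deiodinase that activates thyroid hormone, rose by 1.59 (adjusted p = 0.0048) and was higher in adults by 2.52 ± 0.15 (422, 449 and 573 against 2786, 3070 and 2611). NOX4, the oxidase of renal tubules, rose by 1.81 (adjusted p = 0.0030) and was higher by 2.30 ± 0.26. The metallothionein MT1X had no such early change (-0.16, adjusted p = 0.90), nor had SLC17A3 (0.04, adjusted p = 0.98).

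The 17 genes that rose between 60 and 125 days and were lower in the adult make up a share near that of all tested genes (3.96% beside 3.66%), so they are described only. ELN rose by 1.63 (adjusted p = 0.0046), COL6A3 by 1.08 (adjusted p = 0.0058) and TCF21 by 0.67 (adjusted p = 0.021), each then lower in the adult as given above. COL4A1, a chain of basement membrane collagen, rose by 0.92 (adjusted p = 0.0058) and read 5892, 8046 and 7740 at 160 days against 1043, 1231 and 1000 in adults (-2.70 ± 0.17). PTGDS, a prostaglandin synthase, rose by 1.86 (adjusted p = 0.0015) and read 2262, 1011 and 1808 against 274, 298 and 263 (-2.46 ± 0.35). HLA-DRA rose by 2.42 (adjusted p = 0.00063), while COL1A1 did not pass (-0.09, adjusted p = 0.83). Among the tested genes, 9 fell early and were lower still in the adult. They were MEST, MARCKSL1, BASP1, GAS1, HMGB2, ANP32E, DYNLL1, HSPA5 and RAN. Genes below the filter, such as IGF2BP3 and TOP2A, were not in this test. Mean signals of IGF2BP3 and TOP2A were 859 and 535 at 60 days, and 228 and 234 at 125 days. MEST fell by 0.82 (adjusted p = 0.022) and HMGB2, a chromatin protein of dividing cells, fell by 1.39 (adjusted p = 0.015).

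Among the called genes, group means were also compared over all fetal stages. The call already sets the adult and 160dG means apart, so the counts add only the 3 earlier stages. All 4 fetal groups share 1 array type, so array type and age cannot be told apart in these counts either. In 432 of the 433 higher genes the adult mean was above each of the 4 fetal group means, and in 414 of the 429 lower genes it was below each of them. For 139 of the higher genes every fetal group mean was at or below the filter, and for 128 of the lower genes the adult mean was. By array, the median of the 25 proximal tubule transport genes, relative to the 160dG mean, was -1.56 and -1.06 at 60 days, -0.35 to 0.44 at 160 days and 1.09 to 1.20 in the adults. The median of the 22 matrix genes was 0.05 to 0.52 on the 8 earlier fetal arrays, -0.08 to 0.10 at 160 days and -2.29 to -1.66 in the adults. The distance between the adult and the 160dG arrays was thus larger than the whole fetal range of that list, and it falls where the array type changes.

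**Figure D5:**
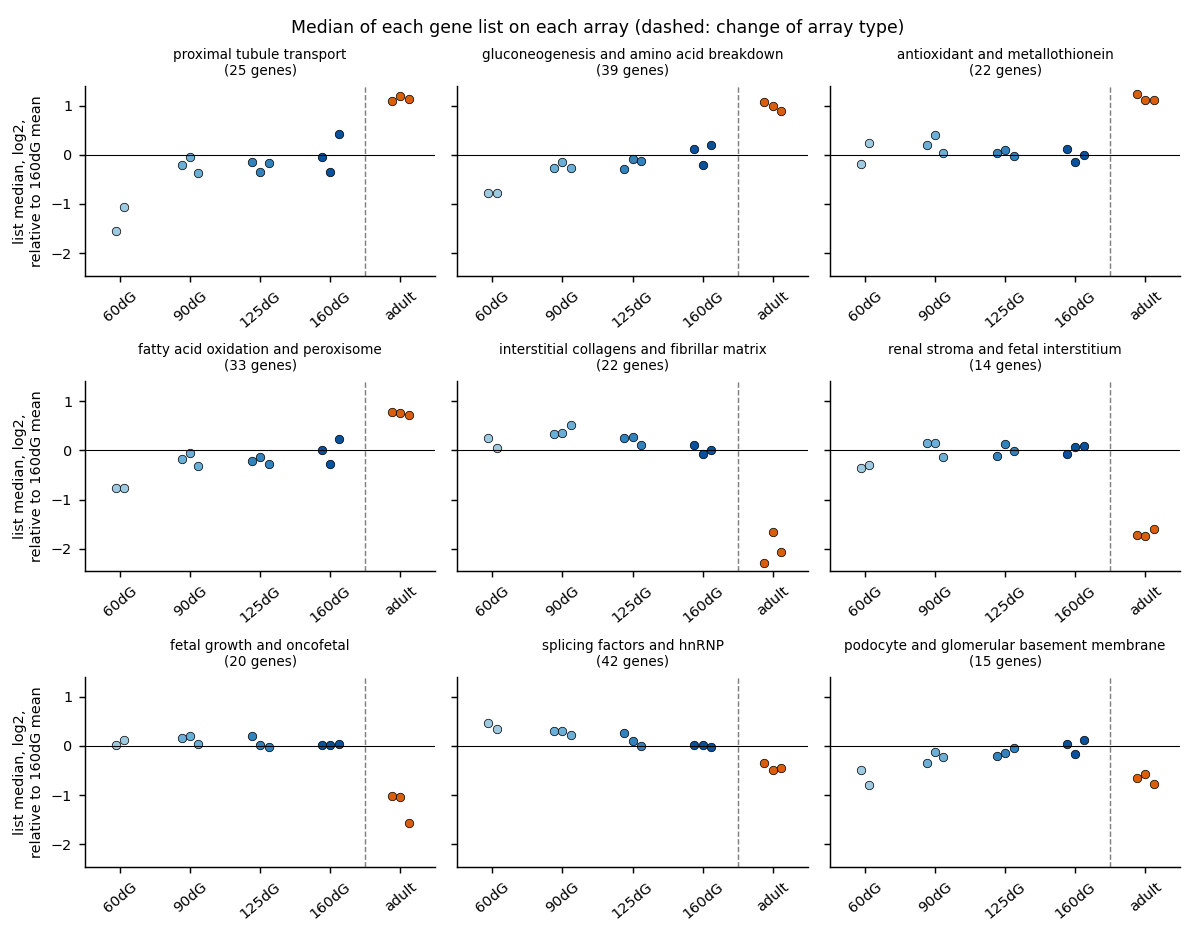
Median over the genes of a list (log2, relative to each gene's 160dG mean) on each of the 14 arrays, in 9 gene lists from 60 days of gestation to adult, with a dashed line where the array type changes and the number of genes in brackets. The adult arrays lie above all fetal arrays in the 4 lists of transport and metabolism and below them all in the matrix, stroma, fetal growth and splicing lists; in the podocyte list they overlap the 60-day arrays.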

How the data were processed

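RNA of whole kidney from 14 baboons was labelled and hybridised to human Affymetrix arrays, and the 3 adult and 3 160dG arrays are compared here. The authors deposited 1 linear intensity per probe set and array, made with GCOS (Affymetrix array software) per the submitters' processing notes; the scaling target and detection calls are not stated in those notes. The fetal and adult tables were normalized apart and are of different array types, so no test was run across them. Both held the same 16186 probe sets, of which 43 were controls. GEO's platform annotation gave 1 symbol to 14068 probe sets, several to 735 and none to 1340, and probe sets with several or none were left out. Each of 9580 genes was read from the probe set with the highest average of both group means, on log2(signal + 16). A gene above the filter (7.76 on the log2 scale, the median over the probe sets of the 6 arrays) was called when the means differed by at least 2-fold and no arrays overlapped. The fetal contrast, 125dG minus 60dG, used limma 3.58.1 in R 4.3.3 (lmFit, eBayes with an intensity trend, 11 fetal arrays, Benjamini-Hochberg over 5130 genes); the script was tested on simulated data. Other steps used Python 3.11.15 with pandas 2.3.3. The members and the 36 gene lists were chosen with earlier results of these data known, so no list gets a test. Genes named by rule were the 15 largest called differences each way, up to 4 genes per list by size, and a fixed set of 40 kidney genes, 33 of them on the arrays. Other names, among them further list members, the muscle genes and the genes of the fetal patterns, were picked with their values in view. The number of arrays limits the precision. Fetal samples are labelled biological replicates and the adults differ in age, so SEs cover the spread between these animals. Alternatives changed the constant, the filter, the scaling, the probe set, the size required and the arrays included.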

Additional observations from a re-analysis of the deposited data

How the results depend on the processing

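With 1 array left out at a time, the count of called genes ran from 867 to 944 (higher 411 to 484, lower 417 to 461), and the share of further probe sets in the same direction from 78.5% to 84.5%. Without a filter 2100 genes were called (1324 higher, 776 lower) and 71.9% of further probe sets had the same direction; with the filter at the 0.75 quantile 427 were called (171 and 256), as fewer genes were tested. With every probe set as a feature 1411 were called, 797 of them lower. A limit of 1.5-fold gave 1891 (971 and 920), 4-fold gave 110 (45 and 65), and a 2-fold gap between all arrays gave 275 (113 and 162). The higher share was 63.05% without a filter, 40.05% at the stricter filter and 55.3% after quantile normalization, which kept 743 of the 862 calls; centring kept 721. The median of the mitosis list reversed to -0.083 at the stricter filter, above which only 1 gene of the list, PTTG1, was left. With a constant of 64, KIT (-0.95), PCNA (-0.98), HLA-DRA (-0.97), PDGFRB (-0.996), TRBC1 (0.98) and CD22 (0.97) were under 2-fold. Of 169 genes named by rule and list, 103 were called and 51 of these in every setting. Many were lost only because they lay below the stricter filter, with the difference unchanged, such as SERPINH1 (-4.60) and TNC (-3.87).

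The fetal contrast gave 231 genes, and 78 to 168 with 1 array left out. With the replicate number as a block it gave 185; the numbers share only a label, since same-numbered arrays correlated at 0.17 and 0.02, so the block is no pairing. Signal over background limits the dim genes, which carried the largest shift between the adult kidneys and those of the latest fetal stage. Array type and age cannot be told apart in that shift.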

Other observations

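The 4450 genes that did not pass the filter were not part of the counts. The median difference among them was 0.39 toward the adult. CYP24A1, which degrades vitamin D, read 18.5, 80.6 and 46.7 at 160 days and 229, 175 and 104 in adults. IGF2BP3, an RNA-binding protein of fetal tissue, read 140, 102 and 153 against 24.5, 76.5 and 22.6. EPO (erythropoietin) read 91.1, 128 and 122 against 106, 76.8 and 134, with overlapping groups. XIST, which is transcribed from the inactive X chromosome, read 4589 on 60dG replicate 1 and 50.2 to 215 on the arrays compared here and on the other fetal arrays; RPS4Y1, a gene of the Y chromosome, read 90.2 on that array and 3332 to 5562 on the others.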
